A study of Mus musculus with 5 samples.

Results

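Club cells are the secretory cells of the conducting airways. They release secretoglobins and other defence proteins onto the airway surface, carry enzymes such as Cyp2f2 that oxidise inhaled chemicals, and can divide and give rise to ciliated cells. Scgb1a1 (club cell secretory protein) is their best known product, Scgb3a2 is a second secretoglobin of the same cells, and Scgb3a1 marks secretory cells of the larger airways. The cells described here were selected on measured values: a barcode was a member when at least 2% of its counts came from Scgb1a1, Scgb3a2 and Scgb3a1 together, when it held at least 1 count of Cyp2f2, when fewer than 3 of 6 genes of ciliated cells (Foxj1, Tppp3, Dynlrb2, Rsph1, Tmem212 and Ccdc153) were detected, and when Sftpc, the surfactant gene of alveolar type II cells, took less than 2% of its counts. By this rule 63 of 12707 cells in 4 unsorted libraries of mouse lung were members. Levels of the rule's own genes are therefore given below as descriptions.

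The lungs came from C57BL/6J mice that were placed within 12 h of birth in room air or in hyperoxia (over 95% O2) for 3 days. After hyperoxia the mice recovered in room air, and cells were taken at postnatal day 7 (pnd7) or day 60 (pnd60). Each condition had 1 library made with the 10x Genomics Chromium system, and the number of mice in an unsorted library is not given in the sources used here. No transgene or Cre is named for these mice, and no airway cells were enriched, so the member cells are those that a whole-lung suspension happened to hold. One further library was sorted on the dye C12FDG, from 3 pooled lungs taken at pnd7 after hyperoxia, and 0 of its 493 cells met the rule, which allows a share of up to 0.609% by a limit of 3 counts, or 0.745% by the 2-sided exact interval used for the other shares. The spread between mice cannot be seen in single libraries, so no test was made. Intervals below are 95% limits that cover counting error only, and in the text a gene is called 2-fold apart when its ratio of CPM (the gene's share of all counts of the member cells of a library, scaled to 1000000 counts) was at least 2 or at most 0.5 and both libraries together held at least 100 of its counts in member cells.

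At pnd7, 32 of 2308 cells from air (1.39%, exact Clopper-Pearson interval 0.950% to 1.95%) and 12 of 1246 cells after hyperoxia (0.963%, 0.499% to 1.68%) were members. At pnd60 the numbers were 11 of 4397 cells from air (0.250%, 0.125% to 0.447%) and 8 of 4756 cells after neonatal hyperoxia (0.168%, 0.0726% to 0.331%). Within each age the intervals of the air and hyperoxia libraries overlapped, and both pnd7 shares lay above both pnd60 shares. That order did not hold without members that also carried markers of other cell types, where the shares were 0.0433% (1 cell) in air and 0.642% (8 cells) after hyperoxia at pnd7, and 0.159% (7 cells) and 0.0421% (2 cells) at pnd60. The order of the ages turned round among cells with at least 5000 counts, where 1 of 998 cells was a member in air at pnd7, 1 of 747 after hyperoxia at pnd7, 6 of 834 in air at pnd60 and 5 of 905 after hyperoxia at pnd60. How many club cells a dissociation frees and how many survive it was not tested. No barcode was shared between the members of any pair of libraries, although 5 to 7 barcodes in all were shared between pairs of unsorted libraries.

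The threshold of 2% cut through a thin tail of cells. In air at pnd7 the lowest member had 2.09% of its counts in the 3 secretoglobins and the highest cell outside had 1.77%, with the other criteria met. After hyperoxia at pnd7 there was a wide gap, from 8.59% in the lowest member to 0.587% in the next cell. At pnd60 the lowest member and the highest cell outside had 2.31% and 1.85% in air, and 2.11% and 1.42% after hyperoxia. Of the 131 air cells at pnd7 that reached 2% secretoglobins, 38 were kept out only by ciliated genes and 21 only by Sftpc.

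The member cells were not alike, and many went against their label. Without those that held at least 3 counts of leukocyte, endothelial or collagen genes, any count of the 6 ciliated genes, or Sftpc at 0.5% or more, 1 of 32 remained in air at pnd7, 8 of 12 after hyperoxia at pnd7, 7 of 11 in air at pnd60 and 2 of 8 after hyperoxia at pnd60. The 1 cell left in air at pnd7 is the deep cell described next, so all other members of that library held such markers. In air at pnd7, 1 member had 19312 counts, of which 49.1% were secretoglobins, 0.114% hemoglobin and 0.0155% Sftpc, and it held 17 of 21 further genes of club cells fixed in a list (club identity genes, led by carbonyl reductase Cbr2). The other 31 members had 1334 to 3064 counts, a median of 6.03% secretoglobins and 5 of the 21 identity genes, and 6.73% to 29.3% hemoglobin. Of all 32, 14 held 1 and 11 held 2 of the 6 ciliated genes of the rule. After hyperoxia at pnd7 the deepest member (6984 counts, 8.59% secretoglobins, 14 identity genes) was followed by 11 cells of 1661 to 3936 counts with 12.0% to 30.7% secretoglobins, 5 to 13 identity genes and 5.59% to 42.5% hemoglobin. At pnd60, 6 of 11 air members had 5866 to 47807 counts and 14 to 19 identity genes, while the other 5 had 1150 to 1859 counts and 2 to 6 identity genes. After hyperoxia at pnd60, 5 of 8 members had 8078 to 46007 counts, and 4 of these held 14 to 19 identity genes. The 1 exception had 10151 counts, 2.11% secretoglobins, 6 identity genes, 181 counts of Chil3 (a secreted protein of alveolar macrophages) and 8 counts of Ptprc, the CD45 gene of leukocytes. For these reasons they are called member cells here, by their rule, and not club cells throughout.

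**Figure D1:**
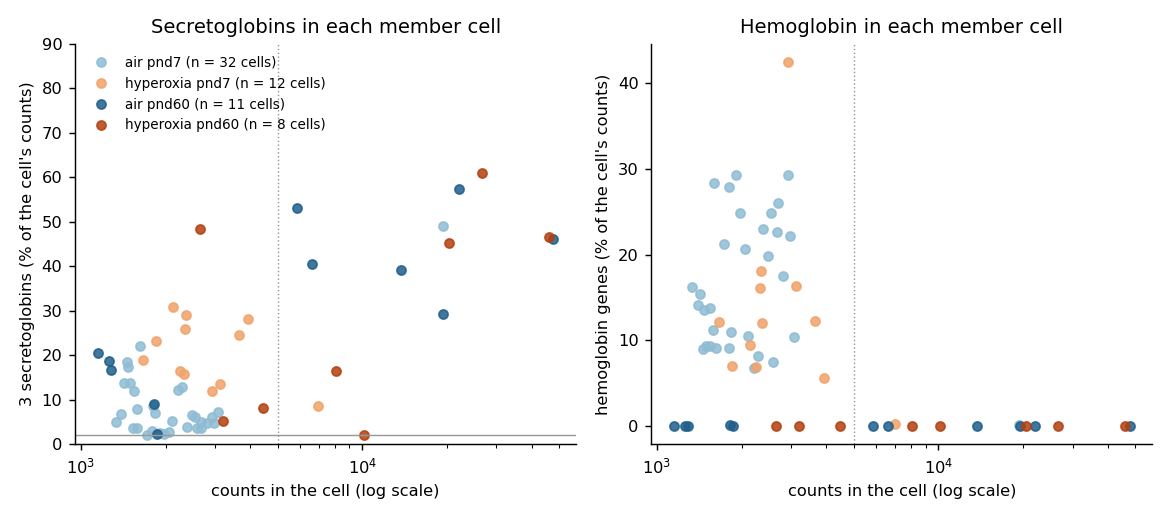
Each point is 1 of the 63 member cells, coloured by library, with its total counts on a log axis. The vertical axis is the percent of its counts from the 3 secretoglobins on the left (grey line at the 2% of the rule) and from hemoglobin genes on the right; the dotted line marks 5000 counts. Cells at the right of the dotted line lay at or near 0 in hemoglobin, and the pnd7 cells at its left did not.

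Because of this unevenness single cells carry much of each summed value. The deepest member held 23.4% of the members' 82564 counts in air at pnd7, 19.6% of 35558 after hyperoxia at pnd7, 38.9% of 122864 in air at pnd60 and 37.9% of 121545 after hyperoxia at pnd60. In air at pnd7 the single deep cell gave 67.4% of all Scgb1a1 counts. Results below are therefore given by cell where possible, and with the deepest member of each library left out.

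Genes of other cell types were counted in the members with whole lists of markers. Mesenchymal markers, 12 genes, summed to 3621 CPM in air at pnd7 (11 detected, Eln leading with 93 counts in 27 cells, Inmt at 0), to 112 CPM after hyperoxia at pnd7 (2 detected, Col1a1, Col1a2, Col3a1 and Eln at 0), to 635 CPM in air at pnd60 and to 239 CPM after hyperoxia at pnd60. Type II markers, 11 genes, summed to 9944 CPM in air at pnd7, 591 CPM after hyperoxia at pnd7, 2857 CPM in air at pnd60 and 3069 CPM after hyperoxia at pnd60. Sftpc led this list at pnd7 with 722 counts in 32 of 32 air members and 15 counts in 8 of 12 hyperoxia members, and Sftpa1 led it at pnd60. Ciliated genes of the rule summed to 630 CPM in air at pnd7 and to 84.4, 65.1 and 115 CPM in the other 3 libraries in the order above. The 18 further ciliated genes summed to 1962 and 1912 CPM in air and after hyperoxia at pnd7 and to 1196 and 1744 CPM at pnd60. Of these genes 16 were detected in air at pnd7 and 2 after hyperoxia at pnd7. Sec14l3 was the most abundant in every library, with 116 counts in air and 66 after hyperoxia at pnd7, and the other 17 genes had 46 and 2 counts (557 and 56.2 CPM). The 7 erythroid genes summed to 133823 CPM in air at pnd7, 118651 CPM after hyperoxia at pnd7, 24.4 CPM in air at pnd60 and 32.9 CPM after hyperoxia at pnd60. Macrophage and monocyte markers, 12 genes, reached 2592 CPM after hyperoxia at pnd60, led by Chil3, against 32.6 CPM in air at pnd60 and 1284 and 1041 CPM in air and after hyperoxia at pnd7. Neutrophil markers, 10 genes, summed to 52 counts in air at pnd7 and 0 after hyperoxia at pnd7. Endothelial markers, 11 genes, summed to 1466 CPM in air at pnd7 and to 337, 846 and 280 CPM in the other 3 libraries. Basal cell markers, 8 genes, gave at most 4 counts in a library. After hyperoxia at pnd60 these were 3 counts of Krt15 and 1 of Krt5, and Trp63 and Krt14 were at 0 in all 4 libraries. Neuroendocrine markers, 9 genes, gave 2 counts in air at pnd60 and 0 elsewhere, and lymphocyte markers, 12 genes, gave 4 to 18 counts per library.

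Hemoglobin was compared with cells of like depth. Among cells of 1300 to 3100 counts, the median member held 15.4% hemoglobin in air at pnd7 and the median non-member 12.3%, while after hyperoxia at pnd7 the 8 members in this range had a median of 12.1% and the 241 non-members 0.291%. The 2 medians were close in air and far apart after hyperoxia. The part of red cell RNA in the results at pnd7 was not tested.

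Secretoglobin RNA was also found outside the members. In cells that were neither members, ciliated nor type II cells, at least 1 count of Scgb1a1 was seen in 21.5% of air cells at pnd7 (median depth 5171 counts), 13.4% of hyperoxia cells at pnd7 (7086), 57.2% of air cells at pnd60 (2000) and 67.1% of hyperoxia cells at pnd60 (2126). The members' median depths were 1945, 2355.5, 5866 and 9114.5 counts. Scgb1a1 stood at 497, 65.7, 683 and 1177 CPM in those other cells, against 161935, 149418, 398961 and 400847 CPM in members. For Cyp2f2 the shares of these other cells with a count were 2.56%, 0.649%, 4.95% and 5.08%. Type II cells, taken here as a type that should lack Scgb1a1, held it at 196, 19.1, 276 and 399.7 CPM, with median depths of 2631, 9197, 6557.5 and 6356 counts. Ciliated cells held Scgb1a1 at 86412 CPM in air at pnd7, where 75 were found, at 1091 CPM after hyperoxia at pnd7, where 6 were found, at 116781 CPM in air at pnd60 (45 cells) and at 61871 CPM after hyperoxia at pnd60 (40 cells).

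Of the rule's genes, Scgb1a1 was lower at pnd7 than at pnd60 in the sums just given. By cell the median was 58745 CPM in air at pnd7 (19710 to 466756), 158235 CPM after hyperoxia at pnd7 (81758 to 240732), 284132 CPM in air at pnd60 (23131 to 560104) and 278456 CPM after hyperoxia at pnd60 (17831 to 590374). The ranges of all 4 libraries overlapped. Cyp2f2, the cytochrome P450 that activates naphthalene in club cells, stood at 2338 and 3037 CPM at pnd7 in air and after hyperoxia and at 14838 and 13460 CPM at pnd60. Scgb3a2 took another order, with 7001 CPM in air and 41791 CPM after hyperoxia at pnd7, and 14333 CPM in air and 10729 CPM after hyperoxia at pnd60.

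The ratio of the 2 main secretoglobins within a cell does not depend on the total. In air at pnd7, Scgb3a2 gave 4.32 counts per 100 counts of Scgb1a1 (3.97 to 4.70), and single cells ranged from 0 to 5.88 with a median of 2.32. After hyperoxia at pnd7 the ratio was 28.0 (26.4 to 29.6). In 11 of the 12 hyperoxia cells it lay between 27.7 and 46.2, above every air cell, and in the deepest cell it was 5.08. At pnd60 the ratio was 3.59 (3.42 to 3.77) in air and 2.68 (2.53 to 2.83) after hyperoxia, with cells from 0 to 9.65 in air and from 0 to 22.6 after hyperoxia. The same difference at pnd7 was present in the other filtered cells, where secretoglobin counts are few and shared by many cells: 3.81 per 100 (3.31 to 4.37) in air and 25.2 per 100 (21.0 to 30.1) after hyperoxia. Ciliated cells at pnd7 gave 9.25 (8.89 to 9.62) in air and 14.3 (7.53 to 25.1) in the 6 cells after hyperoxia. Type II cells gave 6.36 (4.81 to 8.26) and 18.2 (9.50 to 32.4), so in both classes the 2 values lay closer together. At pnd60 the other cells gave 2.26 and 2.07 per 100. Whether the free RNA of a library sets the ratio seen in its shallow members was not tested. In the 1 deep cell of each pnd7 library the ratios were 5.14 in air and 5.08 after hyperoxia, so the difference lay in the cells under 5000 counts.

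**Figure D2:**
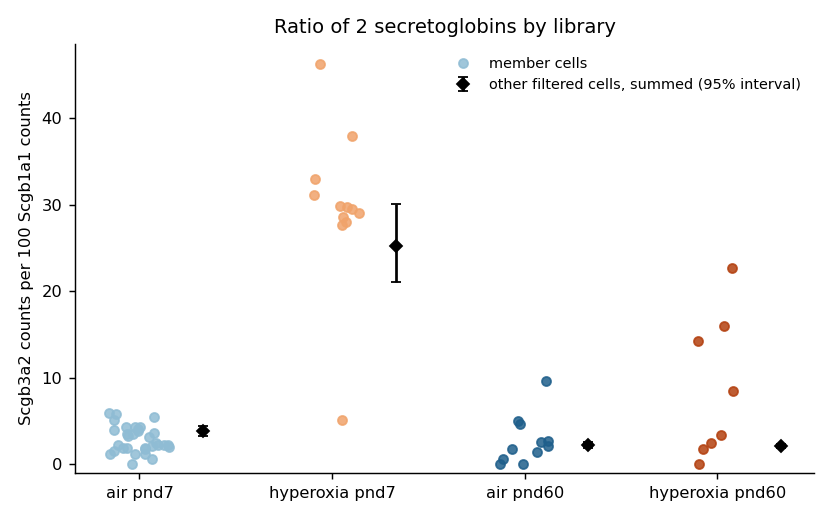
Points are member cells, with the Scgb3a2 counts per 100 Scgb1a1 counts of each cell on the vertical axis and the library on the horizontal axis (points are spread sideways at random). Black diamonds give the same ratio over the summed counts of the other filtered cells with its 95% interval. In hyperoxia at pnd7, 11 of 12 cells lay at 27.7 or more and 1 at 5.08, and the diamond stood at 25.2 against 3.81 in air at pnd7.

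Scgb3a1 and a set of secreted products were found in a few pnd60 members and, but for 1 count of Bpifb1, in no pnd7 member. Scgb3a1 was detected in 0 of 32 and 0 of 12 members at pnd7, in 2 of 11 air members at pnd60 (1266 and 386 counts) and in 3 of 8 hyperoxia members at pnd60 (4, 35 and 153 counts). All 5 of these cells also held Bpifa1 (SPLUNC1, an antimicrobial protein that lowers airway surface tension), with 3681 and 402 counts in air and 2, 38 and 16 counts after hyperoxia, and no other member did. The related Bpifb1 was found in the same 5 cells, with 168 and 22 counts in air and 1, 184 and 23 counts after hyperoxia, and in 1 further member, the deep cell of air at pnd7, with 1 count. Reg3g, a lectin that kills gram-positive bacteria, had 78 and 83 counts in the 2 air cells and 0, 17 and 4 counts in the 3 hyperoxia cells. Muc5b, the mucin of airway secretory cells, had 103 and 15 counts in the 2 air cells, 11 counts in 1 of the 3 hyperoxia cells, and 3 and 1 counts in 2 hyperoxia members without Scgb3a1. Tff2, a trefoil peptide, was in all 5 with 36 and 14 counts in air and 5, 4 and 2 counts after hyperoxia. The hyperoxia cell with 4 counts of Scgb3a1 is the cell with Chil3 and Ptprc described above. The 10 goblet cell markers, of which Muc5b and Tff2 are 2, summed to 0 and 1 counts at pnd7, to 173 counts (1408 CPM) in air at pnd60 with 5 detected and to 26 counts (214 CPM) after hyperoxia at pnd60 with 2 detected, a log2 ratio of -2.72 (-3.37 to -2.12) between the libraries at pnd60. Of the 173 counts 118 were Muc5b and 50 Tff2, while Fcgbp had 3 and Agr2 and Gp2 had 1 each. The deepest air cell held 103 of these Muc5b and 36 of these Tff2 counts, so the ratio rests largely on 1 cell. Muc5ac, Spdef and Clca1 were at 0 in the members of all 4 libraries.

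The bases before the starts of 3 genes of this set and of Cyp2f2 and Cbr2, which 63 and 62 members held, are shown because the first 3 were detected together in the same few cells. They are RefSeq sequences of GRCm38.p6, the assembly of the mm10 build named in the submitters' processing notes, written 5′ to 3′ on the gene's strand and stopped before the first exon of the GENCODE annotation. Capitals mark the letters CTCAAG, the core of the NKX2-1 motif, and TATTTAC or TGTTTAC, forkhead motifs, each searched on both strands. The windows are 250 bases long, or 204 for Cyp2f2 and 157 for Cbr2, where an exon cut them short.
Scgb3a1, chr11:49663345-49663594, plus strand: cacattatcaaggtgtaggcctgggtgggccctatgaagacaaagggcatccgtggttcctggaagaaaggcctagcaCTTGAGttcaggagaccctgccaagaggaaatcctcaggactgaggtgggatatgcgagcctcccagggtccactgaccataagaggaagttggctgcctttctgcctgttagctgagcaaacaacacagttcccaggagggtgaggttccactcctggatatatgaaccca
Bpifa1, chr2:154142630-154142879, plus strand: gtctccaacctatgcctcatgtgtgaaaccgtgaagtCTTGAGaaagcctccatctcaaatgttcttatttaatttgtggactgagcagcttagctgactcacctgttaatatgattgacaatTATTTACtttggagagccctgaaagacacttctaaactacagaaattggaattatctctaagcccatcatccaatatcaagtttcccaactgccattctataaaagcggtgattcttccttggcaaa
Reg3g, chr6:78468875-78469124, minus strand: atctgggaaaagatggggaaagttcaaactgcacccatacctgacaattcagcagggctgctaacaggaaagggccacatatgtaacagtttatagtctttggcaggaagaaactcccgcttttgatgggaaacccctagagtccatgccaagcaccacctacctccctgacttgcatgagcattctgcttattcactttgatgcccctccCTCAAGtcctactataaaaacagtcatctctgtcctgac
Cyp2f2, chr7:27119705-27119908, plus strand: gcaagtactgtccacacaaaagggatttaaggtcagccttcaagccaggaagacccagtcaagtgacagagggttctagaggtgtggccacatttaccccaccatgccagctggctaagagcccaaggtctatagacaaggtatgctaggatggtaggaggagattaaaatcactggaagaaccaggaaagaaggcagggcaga
Cbr2, chr11:120732115-120732271, minus strand: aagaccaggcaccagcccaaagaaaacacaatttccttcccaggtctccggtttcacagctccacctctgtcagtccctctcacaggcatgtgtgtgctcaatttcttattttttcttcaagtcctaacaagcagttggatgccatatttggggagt
Each of the first 3 sequences held CTCAAG or its reverse complement once, and 13.3% of 32851 windows of 250 bases do. Bpifa1 also held TATTTAC, which is in 2.73% of windows, and none of the 5 held TGTTTAC, which is in 3.17%. Cyp2f2 and Cbr2 held none of the 3 motifs in their shorter windows. A match in letters is a description and not a binding site. In mm10 the genes lie at chr11:49663610-49665118 (Scgb3a1), chr2:154142880-154149219 (Bpifa1), chr6:78466269-78468872 (Reg3g), chr7:27119909-27133660 (Cyp2f2) and chr11:120729489-120732114 (Cbr2), and Scgb1a1 lies at chr19:9083636-9087958.

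**Figure D3:**
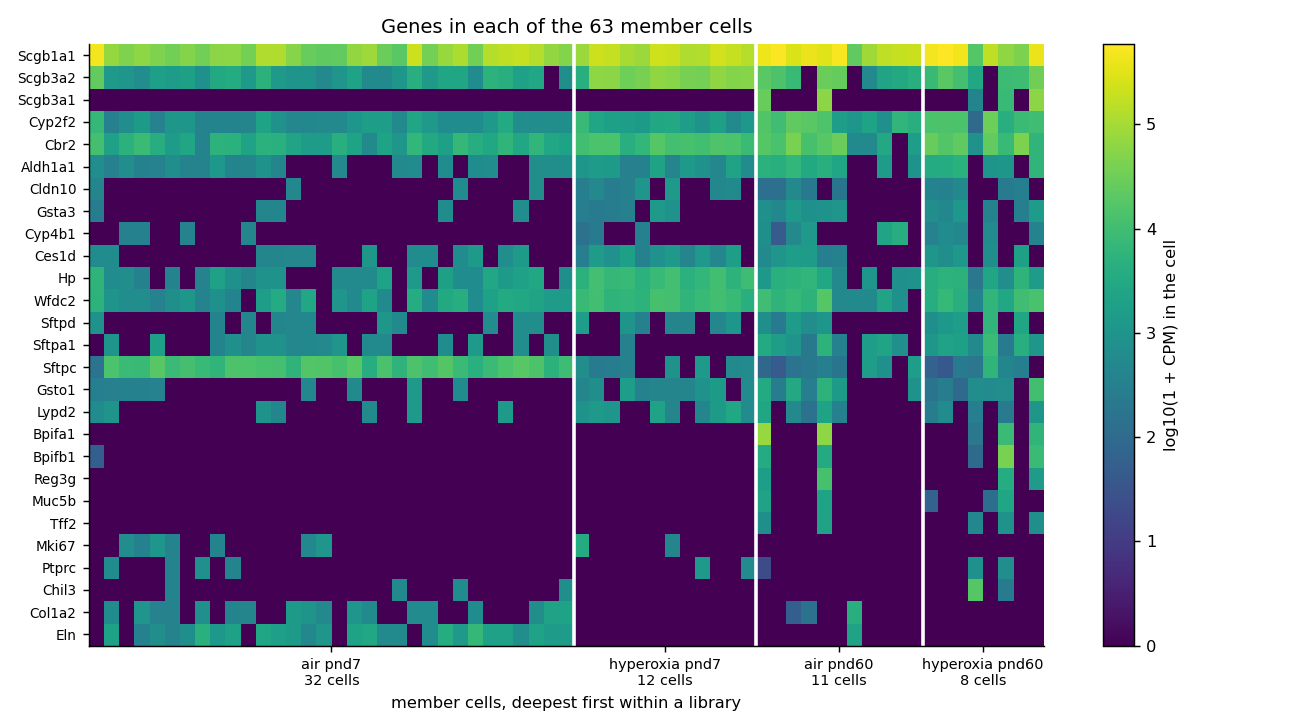
Rows are genes and columns the 63 member cells, deepest first within each library, coloured by log10(1 + CPM) in the cell. Eln and Col1a2 are seen in many cells of the air library at pnd7, in no hyperoxia cell and in few air cells at pnd60, Sftpc is seen in all 4 libraries and at its highest in air at pnd7, and Scgb3a1, Bpifa1, Reg3g, Muc5b and Tff2 are seen in a few pnd60 cells.

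The members were then set beside the other filtered cells of their libraries, from which ciliated and type II cells were left out. Outside the rule's genes, and among genes with at least 100 counts over the members of the 4 libraries, the 8 genes with the highest lowest-of-4 ratio to those cells were 5330417C22Rik, Reg3g, Muc5b, Cbr2, Aldh1a7, Bpifa1, Hp and Bpifb1. The first, 5330417C22Rik, stood at 266, 197, 513 and 477 CPM in the members of the 4 libraries, at 97.7, 86.0, 162 and 145 CPM in type II cells and at 93.9, 22.3, 232 and 122 CPM in ciliated cells. In air at pnd7 it was detected in 21.9% of members and in 29.7% of type II cells. The order turned to 9.375% and 6.16% when each cell was thinned to 1000 counts. For Reg3g, Muc5b, Bpifa1 and Bpifb1 the pnd7 members held at most 1 count, so their pnd7 ratios came from the floor of 3 counts and say nothing of pnd7. The lowest ratio of Bpifa1, 6.41, was that after hyperoxia at pnd60. In air at pnd60 ciliated cells held these genes too, Reg3g at 1093 CPM against 1310 CPM in members, Bpifa1 at 3492 against 33232 CPM, Bpifb1 at 750 against 1546 CPM and Muc5b at 232 against 960 CPM. Scgb3a1 stood at 3594 CPM in those ciliated cells and at 13446 CPM in members. Cbr2, a carbonyl reductase, was detected in 32, 12, 10 and 8 members of the 4 libraries, and its level exceeded that of other filtered cells by at least 6.94 on the log2 scale in each. Ciliated cells held Cbr2 too, at 6589, 7873, 14537 and 13065 CPM, and type II cells at 1644, 1537, 7109 and 6458 CPM, against 5450, 11362, 19721 and 21013 CPM in members. In air at pnd7 the ciliated cells were above the members. Hp, haptoglobin, exceeded other cells by at least 5.77 in each library, and Aldh1a7, an aldehyde dehydrogenase, by at least 6.59. Aldh1a7 stood at 194, 309, 456 and 477 CPM in members at 182, 178, 176 and 166 CPM in ciliated cells, so that in air at pnd7 the 2 were close, and at 97.9, 123, 147 and 142 CPM in type II cells. After each cell was thinned to 1000 counts, Hp was found in 50%, 100%, 54.5% and 100% of members in 64.0%, 16.7%, 46.7% and 57.5% of ciliated cells, in 3.08%, 6.29%, 39.0% and 43.0% of type II cells and in 4.45%, 3.68%, 3.50% and 4.22% of other cells.

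Hyperoxia was then compared with air at pnd7 over the 99 genes with at least 100 counts, whose median log2 ratio was -0.03. In hyperoxia members 6 genes (6.06% of those measured) were at least 2-fold higher and 4 (4.04%) at least 2-fold lower. Scgb3a2 and Sftpc, which the rule used, are counted among them. Those higher were Scgb3a2 at 2.58 (2.44 to 2.72), Hp at 1.93 (1.64 to 2.22), the selenium-binding protein gene Selenbp1 at 1.87 (1.33 to 2.41), the antiprotease gene Wfdc2 at 1.83 (1.56 to 2.11), the microsomal glutathione transferase gene Mgst1 at 1.28 (0.77 to 1.80) and Cbr2 at 1.06 (0.86 to 1.26). Each was detected in 12 of 12 hyperoxia members, and Scgb3a2 in 31, Hp in 24, Selenbp1 in 18, Wfdc2 in 29, Mgst1 in 17 and Cbr2 in 32 of 32 air members. Those lower were Sftpc at -4.37 (-5.22 to -3.64), which the rule limits, Hbb-bt at -1.66, the thymosin gene Tmsb10 at -1.28 and the mesenchymal filament gene Vim at -1.24. Without the deepest member of each library the ratios rose to 4.81 for Scgb3a2, 3.41 for Hp, 3.07 for Selenbp1, 2.63 for Wfdc2, 2.49 for Mgst1 and 1.73 for Cbr2. Between the single deep cells of the 2 libraries the signs of Scgb3a2 (-2.53), Mgst1 (-1.27), Selenbp1 (-1.12), Hp (-0.17) and Cbr2 (-0.17) turned. The deep air cell held 0 counts of Xist and 1 of Ddx3y, and the deep hyperoxia cell 37 and 0. The part of sex in these values was not tested. Without members that held other markers, which leaves 1 air cell, Cbr2 (-0.042), Mgst1 (-0.10) and Hbb-bt (3.82) turned. The air members carried more mesenchymal, type II and ciliated RNA than the hyperoxia members, as listed above, with Sec14l3 as an exception among the ciliated genes, and the part of that RNA in the ratios was not tested.

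By cell, Hp had a median of 649 CPM in air at pnd7 (0 to 5800) and 7227 CPM after hyperoxia (4729 to 11179). Only the deep air cell, at 5800 CPM, lay within the range of the hyperoxia cells. Wfdc2 had a median of 1012 CPM (0 to 5282) in air and 7574 CPM (4214 to 12257) after hyperoxia, and Cbr2 of 2806 CPM (388 to 11910) against 11563 CPM (4161 to 18174). Some low genes stood out by number of cells. Isg15, a ubiquitin-like protein induced by interferon, had 30 counts in 8 of 12 hyperoxia members, 16 of them in 1 cell, and 1 count in 1 of 32 air members at pnd7, and 0 and 1 counts at pnd60. The 22 interferon-stimulated genes summed to 2390 CPM after hyperoxia and 1126 CPM in air at pnd7 (log2 ratio 1.09, 0.64 to 1.53), and to 1415 and 1962 CPM at pnd60 (-0.47, -0.76 to -0.18). Without the deepest members these ratios were 1.15 (0.67 to 1.62) at pnd7 and -0.24 (-0.58 to 0.10) at pnd60. Of the 85 counts of this list after hyperoxia at pnd7, 30 were of Isg15, so the pnd7 ratio rests in part on that gene. The immediate early genes Fos and Jun, which also respond to tissue dissociation, had 45 and 73 counts in air at pnd7 (in 21 and 25 cells) and 2 and 3 counts after hyperoxia at pnd7. The 23 genes of that list summed to 3888 CPM in air and 1153 CPM after hyperoxia, a log2 ratio of -1.75 (-2.26 to -1.28) that turned to 0.13 (-0.87 to 1.18) without members that held other markers, and no gene of the list had 100 counts in both pnd7 libraries together.

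After hyperoxia at pnd7, 1 cell held most counts of 2 genes of dividing cells. Mki67, a nuclear protein of dividing cells, had 26 counts there, of which 25 were in the deepest member, and Top2a, the topoisomerase that separates replicated DNA, had 13 counts, of which 12 were in the same cell. Air members at pnd7 held 11 counts of Mki67 in 7 cells, and members at pnd60 held 0 in both libraries. The 29 cell cycle genes summed to 3993 CPM after hyperoxia and 1853 CPM in air at pnd7, a log2 ratio of 1.11 (0.77 to 1.45), and to 1091 and 1407 CPM in air and after hyperoxia at pnd60. Of the 142 counts of the list after hyperoxia at pnd7, 110 were in the deepest member, and without the deepest member of each library the ratio turned to -1.03 (-1.63 to -0.47).

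Senescence was the question of the study, and member cells held few counts of its genes. Cdkn1a, which encodes p21, had 3 counts in 3 air members and 0 after hyperoxia at pnd7, and 6 counts in 2 air members and 0 after hyperoxia at pnd60. After hyperoxia at pnd7 the members held 35558 counts in all, and 0 counts there do not show that Cdkn1a was absent. Cdkn2a was at 0 in all 4 libraries, Gdf15 had 1, 0, 0 and 15 counts, and Glb1, the lysosomal β-galactosidase gene, had 1, 0, 1 and 2 counts in the order air and hyperoxia at pnd7, then air and hyperoxia at pnd60. None of the 25 genes of the p53 and senescence list reached 100 counts in any comparison. Their sums were 2580 CPM in air and 1940 CPM after hyperoxia at pnd7 (log2 ratio -0.41, -0.82 to -0.01), and 871 and 1390 CPM at pnd60 (0.67, 0.32 to 1.04). Without the deepest members the ratios were -0.92 (-1.43 to -0.45) at pnd7 and 0.54 (0.13 to 0.96) at pnd60. At pnd7 the ratio turned to 0.79 (0.08 to 1.54) without members that held other markers and to 1.47 (0.59 to 2.35) in cells with at least 5000 counts, each with 1 air cell. At pnd60 it was 0.18 (-0.37 to 0.72) without members that held other markers. The 24 genes of the senescence-associated secretory phenotype, a list taken from the study and so no independent evidence, summed to 811 and 562 CPM at pnd7 (-0.53, -1.33 to 0.21) and to 358 and 847 CPM at pnd60 (1.24, 0.72 to 1.79). The macrophage and monocyte markers stood beside this at 32.6 CPM in air and 2592 CPM after hyperoxia at pnd60. Without the member with most Chil3, an alternative chosen after seeing the data, those markers gave 26.9 CPM after hyperoxia, the secretory phenotype list 404 CPM (0.17, -0.46 to 0.81) and the p53 and senescence list 1302 CPM (0.58, 0.21 to 0.95). Without all members that held other markers, which leaves 2 hyperoxia and 7 air cells, the secretory phenotype list turned to -0.54 (-1.71 to 0.55).

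At pnd60, 163 genes were measured between hyperoxia and air members, with a median log2 ratio of -0.01. After neonatal hyperoxia 5 (3.07%) were at least 2-fold higher and 7 (4.29%) at least 2-fold lower. Scgb3a1, which the rule used, is counted among the 7. Lower after hyperoxia were Bpifa1 at -6.17 (-6.58 to -5.79), Scgb3a1 at -3.09, Muc5b at -2.96, Reg3g at -2.92, the glutathione transferase gene Gsto1 at -2.18, Lypd2 at -2.11 and the ceruloplasmin gene Cp at -1.21. The deepest air cell held 90.2% of Bpifa1 counts, 76.6% of Scgb3a1, 87.3% of Muc5b and 59.1% of Gsto1 in its library. Without the deepest cell of each library Bpifa1 stood at -2.85, Reg3g at -1.99, Gsto1 at -1.12, Scgb3a1 at -1.02, Cp at -0.72 and Lypd2 at -0.34, and Fmo2, described next, at 0.63. Muc5b then had 12 counts after hyperoxia and 15 in air, too few for a ratio. When each cell was given equal weight as mean CPM, Scgb3a1 (0.10), Cp (0.070) and Gsto1 (0.31) no longer stood lower. Scgb3a1 and Bpifa1 were held by 3 of 8 hyperoxia members and 2 of 11 air members, so these sums rest on 5 cells. The 6 sex-linked genes summed to 469 CPM after hyperoxia and 147 CPM in air (1.68, 0.89 to 2.53). Xist led them after hyperoxia, with 51 counts in 3 cells, and Ddx3y in air, with 7 counts in 4 cells. The list joins Xist with genes of the Y chromosome, so its sum does not tell the sexes apart. The part of sex in the ratios was not tested.

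Higher after hyperoxia at pnd60 were Chil3, at least 5.94 (0 counts in air against 182, of which 181 were in 1 cell), the lysosomal protease gene Ctsd at 1.77 (87.9% in 1 cell), Cd9 at 1.28, the flavin monooxygenase gene Fmo2 at 1.13 and Sat1 at 1.02. The cell that carries Chil3 and Ctsd is the member with 2.11% secretoglobins and 8 Ptprc counts. With the secretoglobin limit set at 5%, which leaves this cell out, Ctsd turned to -1.18 and 1 of 153 genes was 2-fold higher. With that cell alone left out, 2 of 153 genes were 2-fold higher and 8 lower. Of the club identity genes 8 of 21 were measured, 0 were 2-fold apart, and their median was -0.06 with a range of -0.52 to 0.27. Over all 163 genes 3.07% were higher and 4.29% lower, so 0 of 8 is near that share. Cbr2 had a median of 12356 CPM by cell in air (0 to 41459) and 20252 CPM after hyperoxia (887 to 42082). Aldh1a1, a retinaldehyde dehydrogenase, had 2557 CPM (0 to 6747) and 2355 CPM (0 to 6031). The cells of the 2 libraries overlapped over nearly the whole range for both genes. Genes of phase 1 metabolism had a median of -0.06 over 5 of 40 measured, and Nrf2 and antioxidant genes of 0.09 over 8 of 36, with 1 and 0 genes 2-fold higher. Of 29 secreted defence genes 11 were measured and 5 were 2-fold lower. All 29 summed to 17738 CPM after hyperoxia and 55354 CPM in air (-1.64, or -0.13 without the deepest members). The log2 ratio of the summed 35 conjugating enzymes was -0.58, or -0.41 without the deepest members.

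Age was compared in each exposure separately. In air 148 genes were measured with a median log2 ratio of pnd60 to pnd7 of -0.71, and 30 (20.3%) were at least 2-fold higher and 53 (35.8%) at least 2-fold lower. After hyperoxia 114 genes were measured with a median of -0.64, and 16 (14.0%) were higher and 35 (30.7%) lower. Scgb1a1 alone stood at 161935 CPM at pnd7 and 398961 CPM at pnd60 in air, which leaves less of the total to every other gene at pnd60. With the 3 secretoglobins left out of the totals the split was 37 higher and 13 lower in air and 20 higher and 17 lower after hyperoxia, and with ratios centred on the median it was 41 and 11, and 22 and 9. Ratios of single genes below are on the scale of all counts and can be read against the median.

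Some genes were 2-fold higher at pnd60 in both comparisons, among them Cyp2f2, which the rule used, and Sftpa1, which is on the type II list. Aldh1a1 was higher by 3.24 (2.77 to 3.74) in air and 1.59 (1.10 to 2.11) after hyperoxia, Cyp2f2 by 2.67 and 2.15, Sftpa1 (surfactant protein A) by 2.69 and 6.15, and Ly6e by 1.74 and 2.16. Of 109 genes measured in both comparisons, 10 were at least 2-fold higher and 26 at least 2-fold lower in both. Many genes of the lists reached 100 counts mainly through pnd60, where they were high, so the lists are given by the sums of all their genes. The 21 club identity genes summed to 8624 CPM at pnd7 and 30644 CPM at pnd60 in air (1.83, 1.71 to 1.95) and to 17661 and 30178 CPM after hyperoxia (0.77, 0.65 to 0.90), with Cbr2 at 1.86 and 0.89 and the glutathione transferase gene Gsta3 at 2.83 in air. The 29 secreted defence genes summed to 6407 and 55354 CPM in air (3.11, 2.98 to 3.24) and were nearly level after hyperoxia, at 17914 and 17738 CPM (-0.01, -0.14 to 0.12). Without members that held other markers, which leaves 1 cell in air at pnd7, the ratios in air were 0.91 for club identity and 0.77 for secreted defence. Among secreted products Bpifa1 in air was higher by at least 9.84, Scgb3a1 by at least 8.53 in air and 4.23 after hyperoxia, and Bpifb1 by 7.00 in air and at least 4.34 after hyperoxia. These genes reached 100 counts only through pnd60, and Scgb3a1 is in the rule, so their ratios are descriptions of the selected cells. At pnd60 in air the deepest cell held 90.2% of Bpifa1 counts. The 35 conjugating enzymes summed to a log2 ratio of 1.82 (1.57 to 2.07) in air, or 0.81 without members that held other markers, with Gsto1 at 3.62, Gstm1 at 2.02 and Mgst1 at 1.36. After hyperoxia their sum stood at 0.14 (-0.13 to 0.41), with Gstm1 at 1.47 and Mgst1 at -0.02. The 36 genes of the Nrf2 list summed to 0.15 (0.02 to 0.27) in air, or 1.11 (0.83 to 1.40) without members that held other markers, and to -0.0029 (-0.16 to 0.16) after hyperoxia. Prdx6 (a peroxiredoxin) stood at 2.36 and Sod1 (superoxide dismutase) at 1.54 in air, and Sod1 at 2.49 and the ferritin gene Ftl1 at 1.32 after hyperoxia. Fos stood at 4.06 after hyperoxia (2.17 to 7.12), where the pnd7 library held 2 counts. In air the ratios of these genes of the rule were larger without the deepest members, at 3.96 for Cyp2f2, 2.60 for Scgb3a2 and 2.50 for Scgb1a1. The club identity sum then rose to 2.42 (2.26 to 2.58), and the secreted defence sum fell to 2.47 (2.28 to 2.66). In cells with at least 5000 counts, 1 of them at pnd7, Scgb1a1 stood at -0.16 and Scgb3a2 at -0.66 in air, against 1.30 and 1.03 over all members.

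Among genes lower at pnd60 were the hemoglobin genes, Hbb-bs at -12.17 in air and -11.56 after hyperoxia with 2 and 3 counts left at pnd60. Sftpc (-5.75), Vim (-5.20) and Tmsb10 (-4.53) were lower in air. Ribosomal protein genes had medians of -0.99 over 66 genes in air and -0.89 over 54 after hyperoxia, with 33 and 24 of them at least 2-fold lower and 0 higher, and the scale of the totals bears on these values as stated above. The actin gene Actb stood at -1.87 and -1.80, and in cells with at least 5000 counts at 0.30 and 0.023.

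**Figure D4:**
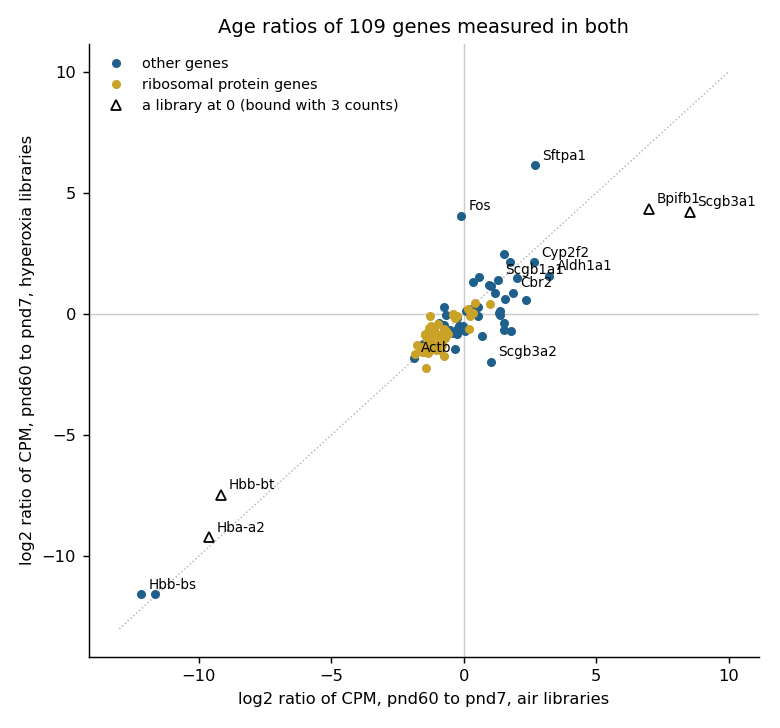
Each point is 1 of the 109 genes measured in both age comparisons, with its log2 ratio of CPM (pnd60 to pnd7) in the air libraries on the horizontal axis and in the hyperoxia libraries on the vertical axis. Triangles are bounds where a library held 0 counts, and the dotted line is equality. Hemoglobin genes lie far below 0 on both axes, Aldh1a1, Cyp2f2 and Sftpa1 above 0 on both, and Scgb3a2 at 1.03 in air and -1.96 after hyperoxia.

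Transcription factors of the airway epithelium were low in all members. None of 36 reached 100 counts in a comparison. Sox2, which specifies the conducting airway, had 6, 6, 25 and 18 counts in air and hyperoxia at pnd7 and air and hyperoxia at pnd60, in 3, 5, 6 and 3 cells. Nkx2-1, the lung lineage factor, had 20, 4, 27 and 53 counts, and Cebpa had 8, 5, 15 and 40 counts. Type II cells held Sox2 at 0 or 1 count per library. The list summed to 3270, 3150, 2971 and 3669 CPM, and the log2 ratio of hyperoxia to air was -0.05 (-0.39 to 0.27) at pnd7 and 0.30 (0.10 to 0.51) at pnd60. At pnd7 it was -0.51 (-0.92 to -0.12) without the deepest members and 1.30 (0.66 to 1.94) between the single deep cells, and at pnd60 it turned to -0.37 (-0.72 to -0.03) without members that held other markers, so no direction is given. The 20 Notch genes, a pathway that keeps club cells from becoming ciliated, summed to 993 and 872 CPM at pnd7 and to 594 and 1037 CPM at pnd60 (0.80, 0.38 to 1.24), where the ratio was -0.14 without the deepest members and -1.10 without members that held other markers. Sodium and chloride channels and pumps, 26 genes, summed to 1357 and 2137 CPM at pnd7 (0.66, or -0.035 without the deepest members) and to 2816 and 2501 CPM at pnd60, and Atp1b1, a sodium pump subunit, was the only one to be measured, with log2 ratios of -0.32 between hyperoxia and air at pnd60 and, between ages, of 1.52 in air and -0.35 after hyperoxia.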

How the data were processed

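Single-cell RNA was measured in 4 unsorted libraries and 1 sorted library of mouse lung. The authors deposited raw counts, in which every unique molecular identifier adds 1 to its gene in its barcode, with no normalization. The submitters' processing notes name Cell Ranger, Seurat 3.2.1 and mm10, and the matrix headers give software version 3.1.0. A barcode passed with over 700 and under 8000 genes and a mitochondrial share below 5%, limits taken from the study's methods, which left 16648251, 13576172, 14744081 and 16533775 counts in air and hyperoxia at pnd7 and at pnd60. The mitochondrial share rests on mt-Rnr1 and mt-Rnr2 alone, the mitochondrial features in the files used here. Member cells were summed by library and scaled by their total to CPM. Shares have exact Clopper-Pearson intervals, and log2 ratios have intervals from the exact binomial limits of the counts of 1 library given both. Where a library held 0, its count was replaced by 3 and the ratio is given as a bound. No test across mice was possible. The promoter motifs were searched in 250 bases before RefSeq starts. Doublets were called with Scrublet in scanpy 1.11.5 as an alternative only, which marked 0.0433%, 0.321%, 3.14% and 3.28% of cells, among them 0, 0, 3 and 1 members. Whether doublets were missed at pnd7 was not tested. Python 3.11.15, numpy 2.4.6, scipy 1.17.1 and pandas 2.3.3 were used. On simulated data with 200 changed genes in 20 simulations, intervals for hyperoxia against air at pnd7 covered 96.3% of changed and 96.1% of unchanged genes. The median number of genes measured there was 101.5. The intervals cover counting error only, and their coverage where single cells carry much of a sum was not tested.

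The member cells and the lists of genes were chosen with earlier results of these data known. Named genes are the rule's genes, core genes of the lists, the 2 highest and 2 lowest measured of each list, the 6 highest and 6 lowest genes of each comparison, the 8 leading genes against other cells (at least 100 counts over all members), and the 6 genes each way in both exposures or ages. Cp falls outside this rule and was chosen after its values were seen. The symbols Cyp2c44, Hes4 and Nov were not matched. Alternatives to the cell filter and the rule were applied to the shares of member cells, and alternatives of minimum count, scaling, weighting, depth and membership to the counts of 2-fold genes, the named genes and the medians of lists.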

Additional observations from a re-analysis of the deposited data

Results flagged for a closer look

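Scgb3a2 moved in opposite directions between the ages: from pnd7 to pnd60 its log2 ratio was 1.03 in air and -1.96 after hyperoxia. The rule used this gene, so both ratios are descriptions of the selected cells. With 1 library per condition the difference between these directions was not tested. The 2 libraries at pnd7 differed in this gene (7001 and 41791 CPM) more than those at pnd60 (14333 and 10729 CPM). Without members that held other markers the ratio in air was -1.05, which no longer opposes that after hyperoxia, and among cells with at least 5000 counts, 1 cell in each pnd7 library, the ratios were -0.66 in air and 1.31 after hyperoxia.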

How the results depend on the processing

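No paired analysis was possible because a single library stood for a condition, and for the same reason no replicate was left out. There were 72 ratios of named genes at least 2-fold apart. The alternatives other than the minimum count gave 650 recomputed values of them, of which 24 were reversed. Some ratios reversed under more than 1 alternative and are counted each time. Without members that held other markers 31 of the 54 that could be recomputed stayed at least 2-fold apart in the same direction and 7 reversed. In cells with at least 5000 counts 31 of 56 stayed and 12 reversed, and with mean CPM per cell 63 of 72 stayed and 3 reversed. Each remaining alternative reversed at most 1. The cause of the changes below was not tested, except where fewer cells, or more or fewer genes over the minimum, make them by construction.

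The share of member cells moved to 0.867% in air at pnd7 with secretoglobins at 5% or more. Without members that held markers of other classes it moved to 0.0433% in air at pnd7 and 0.0421% after hyperoxia at pnd60, which puts air at pnd7 below both air at pnd60 and hyperoxia at pnd7. Among cells with at least 5000 counts, an alternative chosen after seeing the data, the shares were 0.100% and 0.134% in air and after hyperoxia at pnd7 and 0.719% and 0.552% at pnd60.

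The number of genes 2-fold apart between hyperoxia and air at pnd7 (10) became 33 with a minimum of 50 counts, 19 after thinning to 1000 counts and 4 in cells with at least 5000 counts. At pnd60 (12) it became 40 and 4 with minimums of 50 and 200 counts, 24 with mean CPM per cell, 7 after thinning and 7 without members that held other markers. Between ages in air (83) it became 144 and 45 with minimums of 50 and 200 counts, 50 with secretoglobins out of the totals, 52 when centred, 55 after thinning, 34 without members that held other markers, and 53 without the deepest members, also chosen after seeing the data. Between ages after hyperoxia (51) the corresponding numbers were 112 and 15 with those minimums, 31 when centred, 24 after thinning, 16 without members that held other markers and 29 in cells with at least 5000 counts.

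Without members that held other markers, the comparison at pnd7 turned for Cbr2 (-0.042), Mgst1 (-0.10) and Hbb-bt (3.82), and that of ages in air for Actb (0.80), Scgb1a1 (-0.20), Scgb3a2 (-1.05) and Sftpd (-0.29). In cells with at least 5000 counts, 1 in each pnd7 library, Cbr2 (-0.17), Hp (-0.17), Mgst1 (-1.27), Scgb3a2 (-2.53) and Selenbp1 (-1.12) turned at pnd7, Actb (0.30), Scgb1a1 (-0.16), Scgb3a2 (-0.66) and Sftpd (-0.24) between ages in air, and Actb (0.023), Scgb3a2 (1.31) and Sftpd (-0.35) between ages after hyperoxia. At pnd60, mean CPM per cell turned Cp (0.070), Gsto1 (0.31) and Scgb3a1 (0.10), thinning turned Scgb3a1 (0.26), and secretoglobins at 5% or more turned Ctsd (-1.18). The median of the 5 secreted defence genes measured between ages after hyperoxia turned from 1.14 to -0.45 after thinning, -0.44 without members that held other markers and -0.34 in cells with at least 5000 counts. Leaving hemoglobin out of the totals, the third alternative chosen after seeing the data, reversed none of 72 values. Without the member with most Chil3, also chosen after seeing the data, the sum of the macrophage and monocyte markers at pnd60 turned from 6.31 to -0.27 and that of the secretory phenotype list fell from 1.24 to 0.17. Sums of 15 lists were also recomputed after seeing the data. The sign changed in 10 of 59 sums without the deepest members, in 17 of 52 without members that held other markers and in 16 of 52 in cells with at least 5000 counts, and those that had been at least 2-fold apart follow (9 of 55). Without the deepest members the cell cycle sum turned to -1.03 between hyperoxia and air at pnd7 and to 0.43 between ages after hyperoxia. Without members that held other markers, the immediate early sum at pnd7 turned to 0.13, the secretory phenotype sum at pnd60 to -0.54 and the type II sum between ages in air to 2.90. In cells with at least 5000 counts the club identity (-0.15) and conjugating enzyme (-0.98) sums turned at pnd7, the mesenchymal sum (0.67) at pnd60 and the type II sum (3.24) between ages in air. Among smaller ratios, without members that held other markers, the p53 and senescence sum at pnd7 turned from -0.41 to 0.79, the airway factor sum at pnd60 from 0.30 to -0.37, the Notch sum at pnd60 from 0.80 to -1.10 and the cell cycle sum between ages in air from -0.76 to 1.70.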
